A study of Mus musculus with 24 samples.

Results

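Messenger RNA of the proteasome was followed in the left ventricle of mouse hearts 2, 4, 7 and 21 days after TAC (transverse aortic constriction, a banding of the aorta that makes the heart pump against a raised pressure) or a sham operation without the constriction. The genes described are all those of the deposited count table whose symbol is Psma, Psmb, Psmc, Psmd or Psme followed by a number, 43 of 24015 genes. They were grouped as the 20S core (8 genes of the alpha ring and 8 of the beta ring), the 3 immunoproteasome subunits Psmb8, Psmb9 and Psmb10, the 19S regulatory particle (6 ATPases of the Psmc series and 14 other proteins of the Psmd series) and the 4 activators Psme1 to Psme4. The 24 libraries form 8 groups of 3, one for each operation and day. The labels give no genotype, drug, strain or age for any group, and do not say whether the 3 libraries of a group are separate animals, so that p-values may measure a technical spread only. Where single values or overlaps are given below, each heart named stands for a library and not for a known separate animal.

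The proteasome is the protease that degrades proteins tagged with ubiquitin. Its 20S core is a barrel in which rings of alpha subunits gate the entrance and rings of beta subunits hold the cutting sites, and the 19S particle on its end binds ubiquitin chains, removes them and unfolds the substrate with its ATPases. Interferon induces 3 alternative catalytic subunits, which replace their constitutive counterparts in newly built cores (the immunoproteasome) and favour peptides that fit MHC class I molecules. Other activators can dock in place of the 19S particle: PA28, made of the Psme1 and Psme2 proteins, a nuclear ring of Psme3, and PA200, the single large protein of Psme4. In heart muscle the proteasome takes part in the turnover of sarcomere proteins, and its activity has been studied in hearts that grow under load.

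Depth was 10.7 to 17.6 M reads counted per library (M, 1000000 reads). Of the 43 genes, 42 had enough counts to be tested, and Psma8, an alpha subunit of the testis, was not tested with 2 to 13 counts a library. Markers of the labelled tissue were present, since 10 ventricular muscle genes summed to at least 136774 CPM (counts per 1000000 reads) in every library. CPM of summed markers and of Myl7 were divided by the library total alone. Those of proteasome genes also carry the TMM scaling factors of the test, which ran from 0.951 to 1.14. The atrial myosin light chain Myl7 was over 30 CPM in 4 libraries (sham day 2 replicates 2 and 3, TAC day 7 replicate 1 and sham day 21 replicate 2). Counts of calls and lost calls without these 4 are given below, except for day 2 and for the effect over days, since 1 sham library was left at day 2. The averaged test without these 4 rests on that library for the sham level of day 2. Leukocyte genes stood higher after TAC: the summed level of 8 such genes, none at 0, was 54.5 to 81.7 CPM in the sham libraries, and 65.6 to 185 CPM at day 2, 146 to 194 CPM at day 4, 85.0 to 171 CPM at day 7 and 59.4 to 100.1 CPM at day 21 in the TAC libraries. In tissue RNA a change in the number of cells of a type cannot be told apart from a change in RNA per cell.

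Promoter sequences are shown for members on which the results below turn: Psmd14 and Psmc4, 19S genes that rose, Psmb8 and Psmb9, immunoproteasome neighbours on chromosome 17 of which Psmb8 passed the test and Psmb9 did not, and Psme1 and Psme4, the activators that fell. Each is the stretch from 170 bases before to 30 bases after the RefSeq start site in GRCm38.p6, read 5′ to 3′ on the strand of the gene, and capitals mark matches to 4 motifs searched on both strands.
Psmd14, chr2:61711524-61711723, plus strand: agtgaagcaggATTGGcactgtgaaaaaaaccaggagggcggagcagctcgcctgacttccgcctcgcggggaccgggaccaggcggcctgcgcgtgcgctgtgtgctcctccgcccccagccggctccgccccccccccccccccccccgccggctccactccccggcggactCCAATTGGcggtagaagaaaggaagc
Psmc4, chr7:28050063-28050262, minus strand: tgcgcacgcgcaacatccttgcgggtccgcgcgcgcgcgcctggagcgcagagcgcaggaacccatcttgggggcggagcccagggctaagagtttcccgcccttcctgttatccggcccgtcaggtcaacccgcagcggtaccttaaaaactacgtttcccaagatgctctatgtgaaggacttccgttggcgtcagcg
Psmb8, chr17:34198025-34198224, plus strand: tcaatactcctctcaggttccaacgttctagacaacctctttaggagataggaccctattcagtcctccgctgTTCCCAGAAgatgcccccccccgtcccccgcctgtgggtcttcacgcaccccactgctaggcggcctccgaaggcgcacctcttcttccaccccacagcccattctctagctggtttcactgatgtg
Psmb9, chr17:34187301-34187500, minus strand: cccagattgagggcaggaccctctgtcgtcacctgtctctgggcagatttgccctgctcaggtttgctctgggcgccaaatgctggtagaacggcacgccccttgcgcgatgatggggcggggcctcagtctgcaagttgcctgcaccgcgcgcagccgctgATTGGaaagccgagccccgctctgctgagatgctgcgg
Psme1, chr14:55578324-55578523, plus strand: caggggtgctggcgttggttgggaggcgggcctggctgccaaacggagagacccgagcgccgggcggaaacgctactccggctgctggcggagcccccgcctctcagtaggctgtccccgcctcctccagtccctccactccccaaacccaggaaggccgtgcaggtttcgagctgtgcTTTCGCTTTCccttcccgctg
Psme4, chr11:30771605-30771804, plus strand: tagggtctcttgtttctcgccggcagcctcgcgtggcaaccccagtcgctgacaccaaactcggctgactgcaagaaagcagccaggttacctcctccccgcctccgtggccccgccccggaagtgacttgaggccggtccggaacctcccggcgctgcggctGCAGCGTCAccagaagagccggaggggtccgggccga
The motifs were the core of the antioxidant response element (TGACNNNGC), to which NRF1 and NRF2 bind, the core of the interferon-stimulated response element (GAAANNGAAA), the gamma-activated sequence (TTCNNNGAA), an element of interferon gamma responses, and the CCAAT box (CCAAT). Positions count from the start site as 1. The capitals in Psme4 are an antioxidant response element core on the minus strand from −7 to 2. In Psme1 they are an interferon-stimulated response element core on the minus strand from 10 to 19. In Psmb8 they are a gamma-activated sequence from −97 to −89, whose letters read the same motif on both strands. In Psmb9 they are a CCAAT box from −8 to −4, and in Psmd14 they are CCAAT boxes at −159 to −155, 5 to 9 and 8 to 12, of which the last pair overlap. The stretch of Psmc4 holds no match.

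RefSeq windows of 300 bases (250 before to 50 after a start) matched 36 of the 43 members, with 39 windows, and were compared with all 32851 windows of the table. Member windows on chr18 were left out by choice, while all windows kept that chromosome, so that a member there counts as unmatched. The antioxidant response element core was in 15.4% of the member windows (those of Psmb5, Psmb6, Psmc6, Psmd9, Psmd12 and Psme4) and in 12.4% of all windows. The interferon-stimulated response element core was in 10.3% of the member windows (Psmb3, Psmd4, Psmd9 and Psme1) and in 3.44% of all. The gamma-activated sequence was in 5.13% (Psmb8 and Psmd2) and 8.30%, and the CCAAT box in 35.9% and 37.4%. Member windows had a median GC content of 57.3%, against 52.7% over all windows. A match is a description of the letters in the window and not of a bound site.

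In the sham hearts, the order of levels was read from the authors' RPKM (reads per kilobase of gene and 1000000 reads), the deposited unit that corrects for gene length. Psme1, the alpha chain of PA28, had the highest level of all 43 genes, 209 ± 27.4 RPKM (SD, n = 12 libraries), and Psmb7, the trypsin-like catalytic subunit, was next with 191 ± 10.4 RPKM, a gap smaller than their spread. The class medians were 78.4 RPKM for the alpha ring, 83.3 for the beta ring, 51.4 for the ATPases, 44.9 for the other 19S proteins and 46.7 for the activators. The immunoproteasome was the lowest class, with 18.6 ± 2.33 RPKM for Psmb10, 8.85 ± 2.11 for Psmb8 and 4.20 ± 1.58 for Psmb9. Psme2, the partner of Psme1 in the PA28 ring, was at 12.3 ± 1.24 RPKM, Psme3 at 23.7 ± 1.72 and Psme4 at 69.7 ± 7.70. Reads of Psme2 could be shared with the near-identical copy Psme2b of the same table, so that its level is uncertain. Subunits of organs other than the heart were near the bottom: Psmb11 of the thymus core was at 0.645 ± 0.125 RPKM and Psma8 at 0.289 ± 0.152. Among the Psmd genes the lowest were Psmd5, Psmd9 and Psmd10, chaperones that build the 19S base and leave it, with 8.37 ± 0.733, 5.52 ± 0.694 and 5.04 ± 0.664 RPKM.

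**Figure D1:**
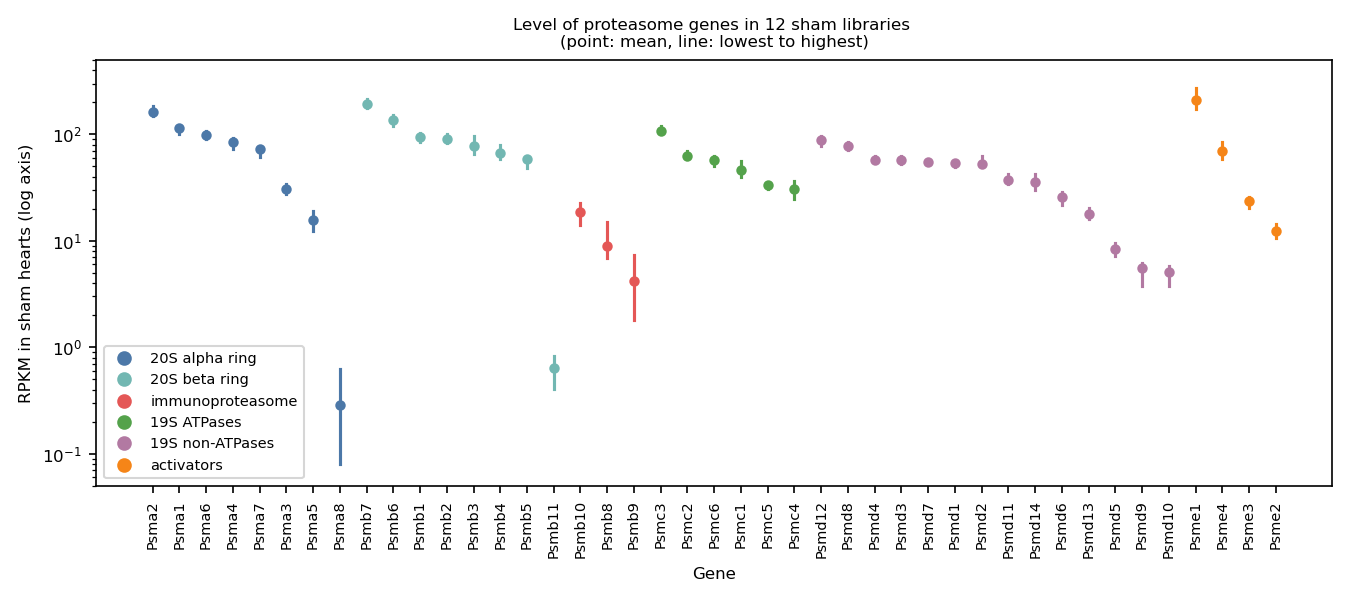
Level of each of the 43 proteasome genes in the 12 sham libraries, in the authors' RPKM on a log axis, ordered within classes; points are means and lines reach from the lowest to the highest library. Psme1 and Psmb7 are at the top with 209 and 191 RPKM, and the 3 immunoproteasome subunits lie between 4.20 and 18.6 RPKM.

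In the mean over the 4 days after TAC, the proteasome genes as a whole stayed close to their sham levels. Leans of opposite sign on single days enter this mean, with member medians of 0.14 at day 2, −0.071 at day 4, −0.10 at day 7 and 0.049 at day 21. Averaged over the 4 days, 8 of the 42 tested members were higher and 2 lower at an adjusted p under 0.05 (edgeR's quasi-likelihood test, Benjamini-Hochberg over 13816 genes), that is 23.8% of the members, where 45.7% of all genes tested passed, 24.4% higher and 21.4% lower. The median log2 fold change of the members was −0.0039, with 20 above 0 and 22 below, beside −0.0025 over all genes. Its median size was 0.057 for members and 0.18 for all genes, and the median standard error was 0.056 against 0.079. The 95% intervals of all 42 members lay within 1.5-fold in either direction, as did those of 71.9% of all genes, and the intervals of 34 members lay within 1.25-fold, against 44.9% of all genes. The members that did not pass ranged from −0.098 (Psmc3) to 0.19 (Psmb11). The members whose intervals went past 1.25-fold were Psma5, Psmb8, Psmb9, Psmb10, Psmb11, Psmd14, Psme1 and Psme4. Without the 4 libraries high in Myl7, 7 of the 10 still passed (5 higher and 2 lower), without Psmb1, Psmb8 and Psmd13. The fit without these 4 had 1 sham library left at day 2. Without TAC day 4 replicate 3 also 7 passed, without Psma5, Psmb1 and Psmd13.

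**Figure D2:**
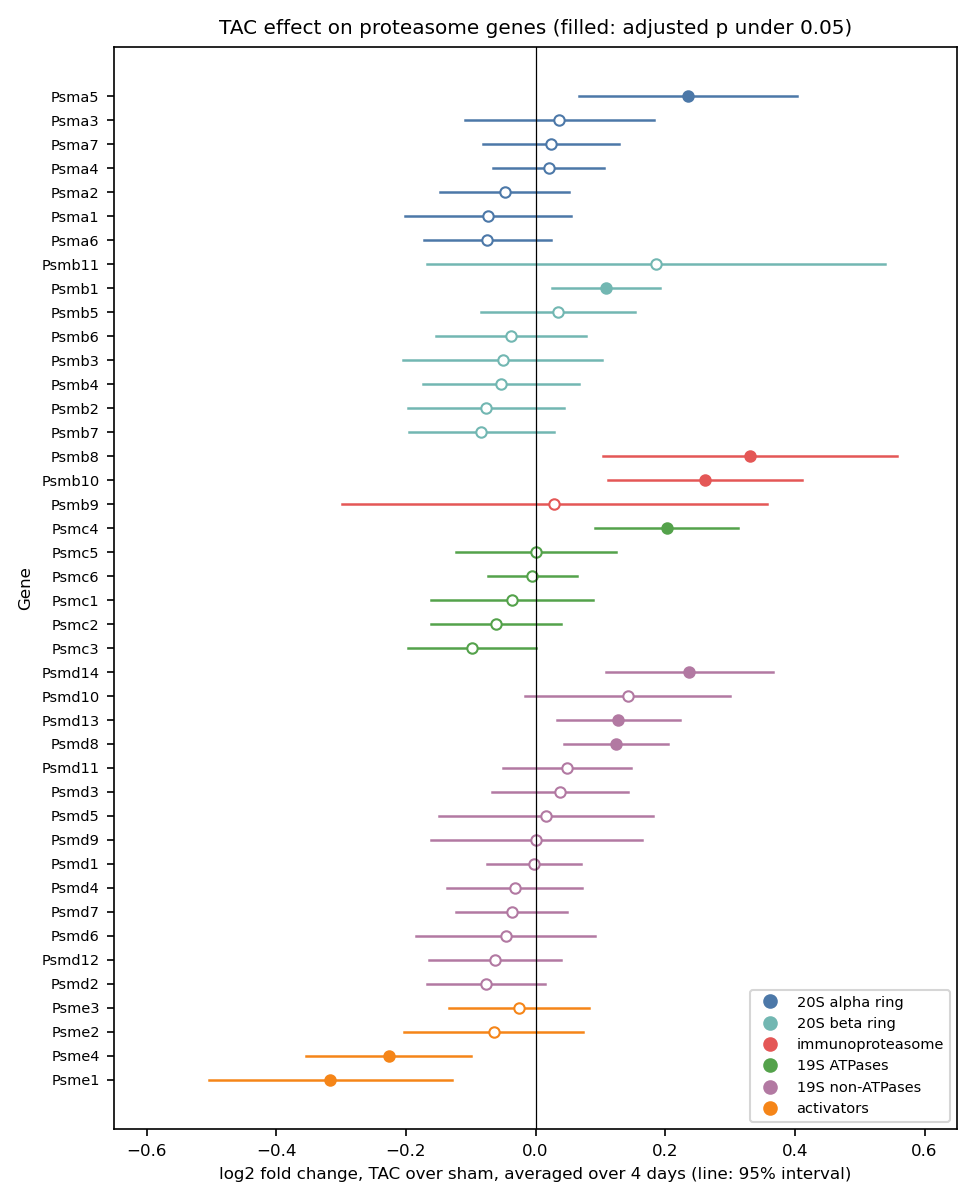
Log2 fold change of TAC against sham averaged over the 4 days for the 42 tested members, by class; points are estimates of edgeR, lines are 95% intervals and filled points passed the test. All members lie between −0.32 (Psme1) and 0.33 (Psmb8).

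In the 20S core, 2 of 15 tested genes passed the averaged test, both higher after TAC, where 24.4% of all genes were higher and 21.4% lower. Psma5, an alpha subunit that takes part in the gate, had its lowest, median and highest level at 12.6, 14.9 and 18.9 CPM over the 12 sham libraries and 13.1, 17.97 and 23.8 CPM over the 12 TAC libraries. In 11 of 12 TAC libraries it exceeded the sham mean of its own day. It rose by 0.24 ± 0.081 on the log2 scale (adjusted p = 0.0221), or 1.18 times (95% interval, 1.05 to 1.32), and among the 35 alternatives run fell short of the threshold only without TAC day 4 replicate 3 (adjusted p = 0.05004). At day 2 its levels were 13.7, 14.6 and 13.8 CPM in the sham hearts and 17.8, 19.02 and 23.8 CPM in the TAC hearts, without overlap, and the day's own test gave 0.53 ± 0.16 (adjusted p = 0.0635). Psmb1, a structural beta subunit, had 74.9, 80.2 and 90.7 CPM over the 12 sham libraries and 70.6, 89.4 and 98.7 CPM over the 12 TAC libraries, with 9 of 12 TAC libraries above the sham mean of their day. Its averaged change was 0.11 ± 0.040 (adjusted p = 0.0307). That call was lost on leaving out any of 7 single libraries (sham day 2 replicate 3, sham day 4 replicate 1, sham day 7 replicate 2, TAC day 4 replicate 3, TAC day 7 replicates 2 and 3, TAC day 21 replicate 2), with adjusted p from 0.0507 to 0.0589.

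None of the 3 constitutive catalytic subunits passed the averaged test. Psmb5, the chymotrypsin-like subunit, stood at 0.034 ± 0.057 on the log2 scale (adjusted p = 0.653), Psmb6, the caspase-like one, −0.038 ± 0.056 (adjusted p = 0.601), and Psmb7 −0.084 ± 0.054 (adjusted p = 0.213). Their 95% intervals ran from 0.943 to 1.11 times the sham level for Psmb5, from 0.899 to 1.06 for Psmb6 and from 0.873 to 1.02 for Psmb7. Of the ring subunits with the next smallest p-values, Psma6 stood at −0.074 ± 0.047 (adjusted p = 0.209), Psma1 at −0.073 ± 0.062 (0.350) and Psmb2 at −0.076 ± 0.058 (0.295), none of which passed.

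Of the 3 immunoproteasome subunits, Psmb8 and Psmb10 rose after TAC and Psmb9 did not pass the averaged test, in which 24.4% of all genes rose. Psmb8, the inducible counterpart of Psmb5, had 6.11, 7.65 and 13.3 CPM over the 12 sham libraries and 7.63, 9.26 and 15.7 CPM over the 12 TAC libraries as its lowest, median and highest level. It rose by 0.33 ± 0.11 on the log2 scale averaged over the days (adjusted p = 0.0172), or 1.26 times (95% interval, 1.08 to 1.47), and 11 of 12 TAC libraries exceeded the sham mean of their day. By day, its levels at day 2 were 7.57, 6.11 and 7.81 CPM in the sham hearts and 8.12, 7.69 and 7.63 CPM in the TAC hearts, which overlap. At day 4 they were 7.74, 13.3 and 8.83 CPM in the sham hearts and 8.81, 15.7 and 10.3 CPM in the TAC hearts, with replicate 2 the highest of both operations. At day 7 they were 7.50, 8.65 and 7.28 CPM in the sham hearts and 10.5, 8.98 and 14.7 CPM in the TAC hearts, and at day 21 6.84, 8.37 and 6.42 CPM in the sham hearts and 9.53, 10.7 and 8.91 CPM in the TAC hearts. In those last days every TAC heart was above every sham heart, while the tests of the single days gave adjusted p = 0.0707 at day 7 and 0.321 at day 21. Without the 4 libraries high in Myl7 the averaged call of Psmb8 had an adjusted p = 0.0525.

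Psmb10, the counterpart of Psmb7, rose by 0.26 ± 0.072 averaged over the days (adjusted p = 0.00553), or 1.198 times (95% interval, 1.08 to 1.33), and was above its day's sham mean in 11 of 12 TAC libraries. Its lowest, median and highest levels were 13.5, 18.1 and 21.4 CPM over the 12 sham libraries and 14.6, 22.1 and 27.5 CPM over the 12 TAC libraries. At day 2 they were 16.9, 17.6 and 13.5 CPM in the sham hearts and 21.6, 14.6 and 17.1 CPM in the TAC hearts, with the TAC hearts on both sides of the sham values. At day 7 they were 19.97, 18.1 and 18.2 CPM in the sham hearts and 20.8, 23.97 and 24.9 CPM in the TAC hearts, and at day 21 19.7, 20.5 and 17.9 CPM in the sham hearts and 22.5, 27.5 and 25.5 CPM in the TAC hearts, without overlap on either day. The averaged call of Psmb10 held under each of the 35 alternatives run. Psmb9, the counterpart of Psmb6, had an averaged log2 fold change of 0.029 ± 0.16 (adjusted p = 0.898), with a 95% interval from 0.813 to 1.28 times the sham level. It was the least abundant of the 3 and spread widely between replicates: at day 7 it had 2.84, 3.11 and 1.06 CPM in the sham hearts and 2.32, 2.24 and 4.05 CPM in the TAC hearts. That interval holds the sizes found for Psmb8 and Psmb10, so that no difference between Psmb9 and these follows from it.

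**Figure D3:**
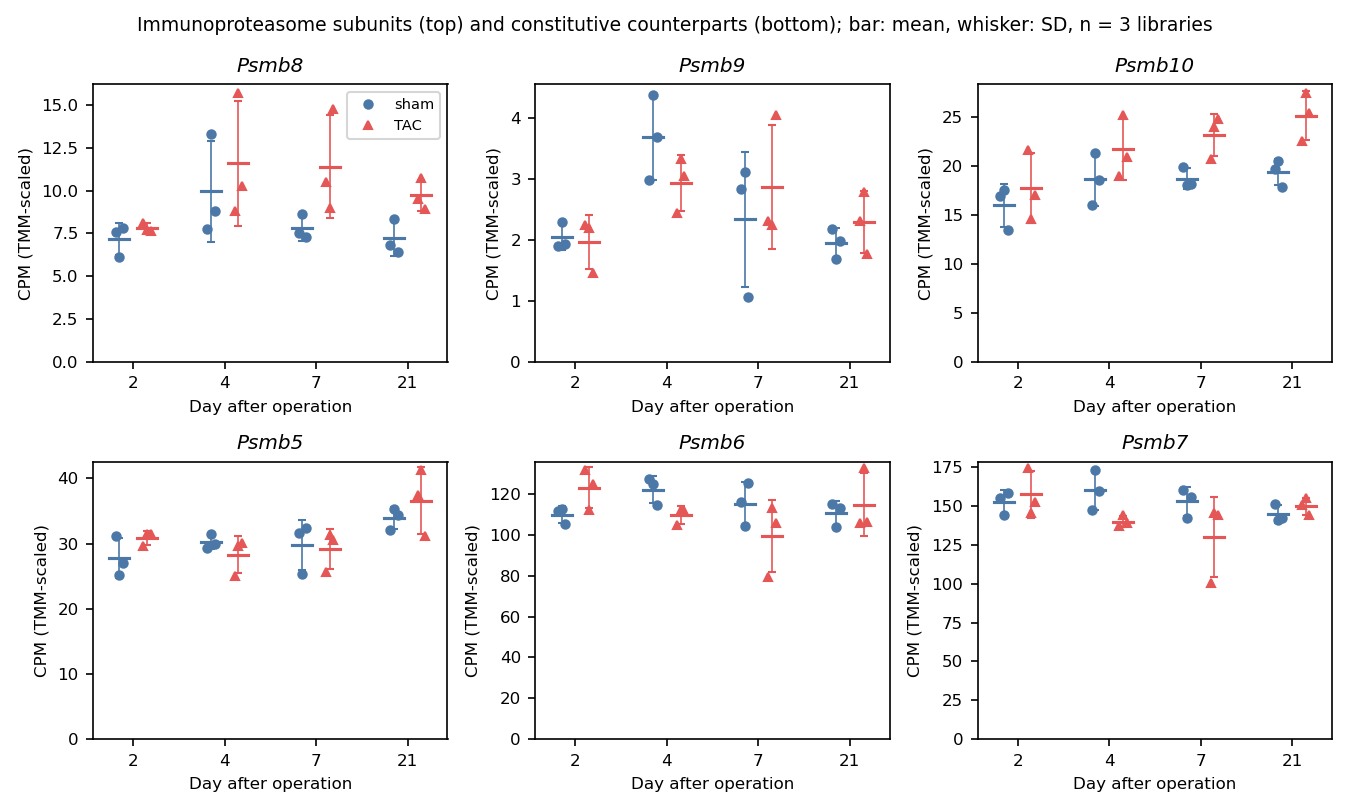
Level of Psmb8, Psmb9 and Psmb10 (top) and of Psmb5, Psmb6 and Psmb7 (bottom) in each of the 24 libraries, in CPM, by day and operation; points are single libraries, bars are group means and whiskers are SDs (n = 3). TAC points of Psmb8 and Psmb10 lie above all sham points at days 7 and 21, and those of Psmb9 overlap with sham at day 7.

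Set against the constitutive subunit that each replaces, the immunoproteasome remained the minor form in RPKM. Psmb8 was at 15.3% ± 3.57 of the Psmb5 level in the 12 sham libraries and 19.1% ± 5.53 in the 12 TAC libraries (SD). At day 4 the share was 18.7% ± 4.66 in sham and 24.1% ± 5.95 in TAC hearts (n = 3 each), and at day 2 it was 14.7% ± 1.72 and 14.8% ± 0.902. Psmb10 was at 9.74% ± 1.12 of Psmb7 in sham and 12.1% ± 2.31 in TAC libraries. Its share at day 7 was 9.86% ± 0.157 in sham and 13.4% ± 2.23 in TAC hearts, and at day 21 10.3% ± 0.301 and 13.1% ± 2.000. Psmb9 was at 3.06% ± 1.07 of Psmb6 in sham and 3.23% ± 1.004 in TAC libraries. These shares are given as levels and were not tested.

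Psmb8 and Psmb9 lie beside the peptide transporter genes on chromosome 17, in the order Psmb9, Tap1, Psmb8, Tap2 (GRCm38.p6). Across the 24 libraries, taken as deviations from the mean of their group, Psmb8 followed Tap1 (Pearson r = 0.84, Spearman rho = 0.80, permutation p adjusted over 9 relations 0.00054 and 0.00117, of which 6 are given here). Without the 2 libraries farthest from the median of Tap1, r was 0.77. Psmb10, which lies elsewhere in the genome, had r = 0.61 and rho = 0.59 with Tap1 (adjusted permutation p 0.0372 and 0.0558), and r = 0.52 without the 2 farthest libraries. Psmb9 had r = 0.28 and rho = 0.37 with Tap1 (adjusted permutation p 0.160 and 0.131), and r = 0.21 without the 2 farthest. With Ptprc, the CD45 gene of leukocytes, r was −0.020 for Psmb8, −0.18 for Psmb9 and −0.42 for Psmb10, and rho 0.017, −0.23 and −0.38 (adjusted permutation p from 0.166 to 0.934 for r and from 0.178 to 0.943 for rho, and r 0.081, −0.047 and −0.21 without the 2 farthest). Values within a library share its depth and tissue make-up.

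Of 13 genes of MHC class I loading, all tested, 3 rose in the averaged test and none fell, where 24.4% of all genes rose and 21.4% fell. These were the chaperones Pdia3 (0.44 ± 0.073, adjusted p = 7.70e-05) and Calr (0.29 ± 0.056, 3.05e-04) and the light chain B2m (0.28 ± 0.091, 0.0147). The median of the list was 0.13, beside −0.0025 over all genes. Of 12 tested genes of interferon signalling, 5 rose and 2 fell, beside the same shares of all genes, with a median of 0.14. Irf8, a transcription factor of myeloid cells, rose by 0.68 ± 0.091 (adjusted p = 8.40e-06) and the receptor chain Ifngr1 by 0.24 ± 0.055 (0.00137), and the kinase Jak1 fell by 0.18 ± 0.037 (5.94e-04). Ifng, the cytokine itself, had 0 to 3 counts a library and was not tested. All 8 leukocyte markers and all 12 tested macrophage and monocyte markers rose as well, with medians of 0.94 and 0.92, and 1 of 4 tested T, NK and B cell markers did, out of 14 listed. Leukocytes contain immunoproteasomes as a rule, and the part of these cells in the levels of Psmb8 and Psmb10 was not tested.

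In the 19S particle, 4 of 20 genes passed the averaged test, all higher after TAC, where 24.4% of all genes were higher and 21.4% lower. Psmd14, the metalloprotease that cuts ubiquitin chains off the substrate, rose by 0.24 ± 0.062 (adjusted p = 0.00390), or 1.18 times (95% interval, 1.08 to 1.29). Its lowest, median and highest levels were 38.5, 49.9 and 57.3 CPM over the 12 sham libraries and 45.4, 57.1 and 76.7 CPM over the 12 TAC libraries, and 11 of 12 TAC libraries exceeded the sham mean of their day. At day 2 they were 54.7, 53.7 and 52.05 CPM in the sham hearts and 59.3, 67.2 and 76.7 CPM in the TAC hearts, and at day 21 44.4, 45.3 and 46.96 CPM in the sham hearts and 54.3, 47.6 and 54.96 CPM in the TAC hearts, with all TAC hearts above all sham hearts on both days, while at day 7 they were 57.3, 51.2 and 49.6 CPM in the sham hearts and 45.4, 53.7 and 60.3 CPM in the TAC hearts, which overlap. Psmc4, an ATPase of the base, rose by 0.20 ± 0.053 (adjusted p = 0.00384), or 1.15 times (95% interval, 1.07 to 1.24), with a lowest, median and highest level of 32.5, 36.97 and 41.9 CPM over the 12 sham libraries and 34.02, 42.2 and 52.1 CPM over the 12 TAC libraries. At day 21 its levels were 36.6, 35.5 and 35.7 CPM in the sham hearts and 43.03, 44.1 and 41.3 CPM in the TAC hearts, without overlap. The averaged calls of Psmd14, Psmc4 and Psmd8 held under each of the 35 alternatives run.

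Psmd8, a lid subunit, rose by 0.12 ± 0.038 (adjusted p = 0.0125), with 92.7, 104 and 113 CPM over the 12 sham libraries and 92.2, 113 and 126 CPM over the 12 TAC libraries and 11 of 12 TAC libraries above the sham mean of their day. Psmd13, also of the lid, rose by 0.13 ± 0.046 (adjusted p = 0.0273), with 21.5, 24.1 and 27.5 CPM over the 12 sham libraries and 23.99, 25.99 and 29.4 CPM over the 12 TAC libraries. The call of Psmd13 was lost without TAC day 2 replicate 3, TAC day 4 replicate 3 or sham day 7 replicate 1 (adjusted p from 0.0562 to 0.0571) and without the 4 libraries high in Myl7 (0.0979). The other ATPases with the smallest p-values stood below 0 without passing: Psmc3 at −0.098 ± 0.048 (adjusted p = 0.0989) and Psmc2 at −0.060 ± 0.048 (0.321). The 6 ATPases form a single ring in the particle, and Psmc4 was the only one to pass.

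Of the 4 activators, 2 fell after TAC in the averaged test, Psme1 and Psme4, where 21.4% of all genes fell. Psme1 fell by 0.32 ± 0.090 on the log2 scale (adjusted p = 0.00702), to 0.803 times (95% interval, 0.705 to 0.914) the sham level, the lowest value of the 42 members. Its lowest, median and highest levels were 130.5, 157 and 204 CPM over the 12 sham libraries and 91.1, 120.4 and 186 CPM over the 12 TAC libraries, and only 2 of 12 TAC libraries exceeded the sham mean of their day. At day 4 the levels were 161, 204 and 175 CPM in the sham hearts and 132, 153 and 118 CPM in the TAC hearts, without overlap with the TAC hearts lower (adjusted p = 0.0910). At day 2 they were 165, 159 and 166 CPM in the sham hearts and 186, 112 and 115 CPM in the TAC hearts, with TAC replicate 1 the highest of all. At day 7 they were 149.7, 130.5 and 156 CPM in the sham hearts and 91.1, 140.4 and 122 CPM in the TAC hearts and at day 21 153, 137 and 140.2 CPM in the sham hearts and 111, 146 and 93.6 CPM in the TAC hearts, each time with 1 TAC heart among the sham values. Psme4 fell by 0.23 ± 0.061 (adjusted p = 0.00485), to 0.855 times (95% interval, 0.782 to 0.933) the sham level. It had 389, 493 and 608 CPM over the 12 sham libraries and 364, 409.7 and 541 CPM over the 12 TAC libraries, and 1 of 12 TAC libraries exceeded the sham mean of its day. Both averaged calls held under each of the 35 alternatives run.

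Psme2, which lies next but one to Psme1 on chromosome 14 with Emc9 between them, had an averaged log2 fold change of −0.064 ± 0.066 (adjusted p = 0.451), and Psme3 −0.026 ± 0.052 (0.712). In RPKM, Psme2 was at 5.94% ± 0.714 of Psme1 in the sham and 7.50% ± 1.60 in the TAC libraries (SD, n = 12 each), subject to reads shared with Psme2b. Whether Psme1 and Psme2 differed in their response was not tested. The ventricular muscle markers moved the same way as Psme1 and Psme4, with 7 of 10 lower and none higher in the averaged test and a median of −0.29. Their summed level was 170238 to 185554 CPM in the sham libraries and 136774 to 177039 CPM in the TAC libraries, with none at 0. Their part in the fall of Psme1 and Psme4 was not tested.

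**Figure D4:**
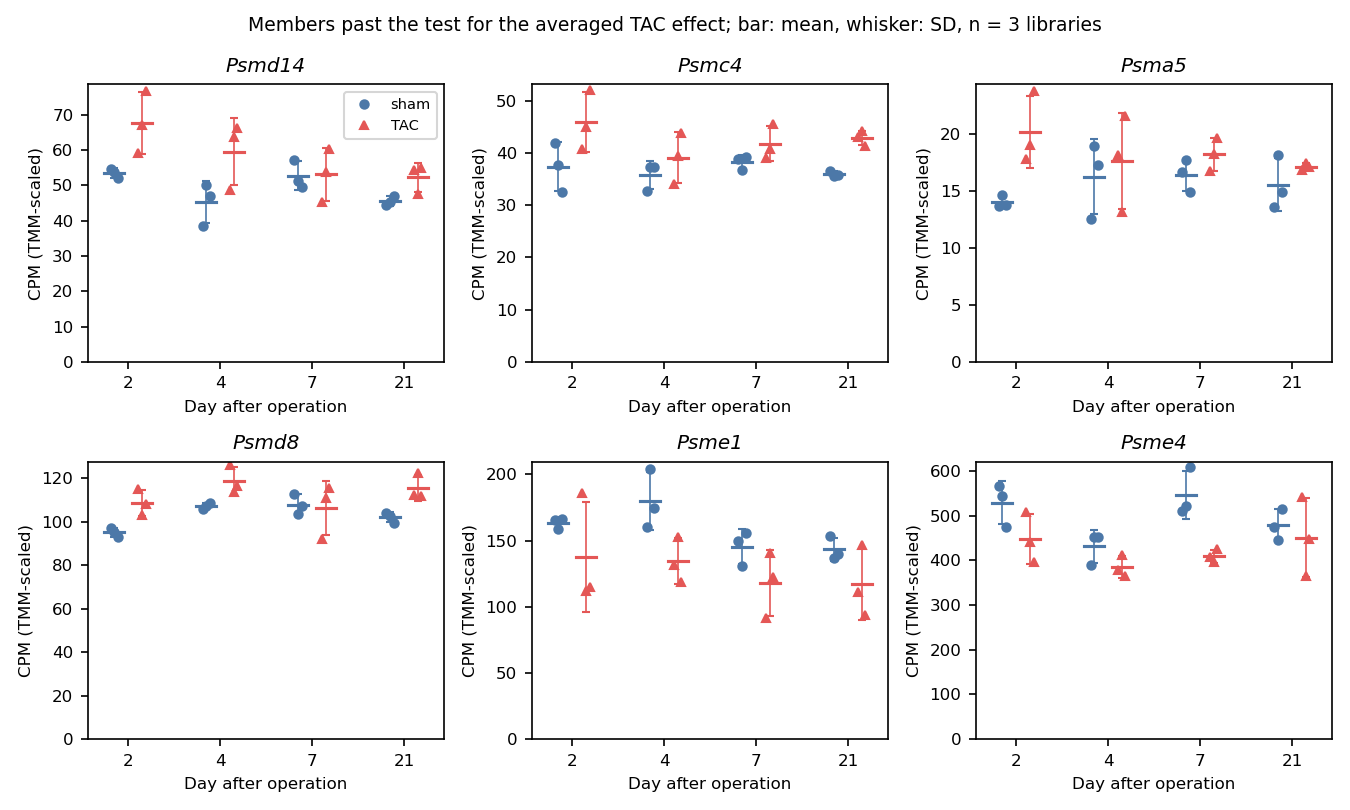
Level of Psmd14, Psmc4, Psma5, Psmd8, Psme1 and Psme4 in each of the 24 libraries, in CPM, by day and operation; points are single libraries, bars are group means and whiskers are SDs (n = 3). Of 12 TAC points each, 11 of Psmd14 and of Psmc4 but 2 of Psme1 and 1 of Psme4 lie above the sham mean of their day.

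Day 2 was the day on which most members leaned upward. The median log2 fold change was 0.14, with 37 of 42 above 0, beside −0.0023 over all genes, and all 27 alpha ring, ATPase and other 19S genes were above 0. In 17 members all TAC hearts were above all sham hearts and in none were they below, where 11.2% of all genes lay apart in each direction. Only Psmb1 and Psmd11 passed the test of the day, 2 of 42 beside 4.58% of all genes, and both were higher, as were 3.73% of all genes. Psmd11, a lid subunit, had 54.5, 57.8 and 56.8 CPM in the sham hearts and 60.2, 74.3 and 80.3 CPM in the TAC hearts and rose by 0.35 ± 0.094 (adjusted p = 0.0373). Psmb1 had 79.7, 77.3 and 74.9 CPM in the sham hearts and 97.9, 91.5 and 92.97 CPM in the TAC hearts and rose by 0.28 ± 0.080 (adjusted p = 0.0447). The call of Psmb1 was lost without any of the 6 hearts of that day or of 6 others (sham day 4 replicate 3, sham day 7 replicate 1, the 3 sham hearts and TAC replicate 1 of day 21), with adjusted p from 0.0538 to 0.194. The call of Psmd11 was lost without any heart of the day other than TAC replicate 1, with adjusted p from 0.101 to 0.330. Leaving out the 4 libraries high in Myl7 kept 1 sham library at day 2, and the changes were then 0.39 for Psmd11 and 0.24 for Psmb1. Without TAC day 2 replicate 1 there were 6 calls, 5 higher and 1 lower.

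Days 4 and 7 had the highest shares of all genes past the test of a day, and few proteasome genes among them. At day 4 only Psmd14 passed, 1 of 42 beside 24.6% of all genes in either direction and 14.4% higher. Its levels were 38.5, 50.2 and 47.1 CPM in the sham hearts and 48.7, 63.8 and 66.3 CPM in the TAC hearts, which overlap, and it rose by 0.40 ± 0.12 (adjusted p = 0.0246). That call was lost without sham day 4 replicate 1 and without TAC day 4 replicates 2 or 3 (adjusted p from 0.0676 to 0.140), and with only the 6 libraries of the day in the fit (0.0677), where Psme1, lower after TAC, was the single call (0.0378). The median of the members was −0.071 with 12 above 0 and 30 below. The groups lay apart in 1 member with TAC higher and in 6 with TAC lower, where 21.5% and 19.6% of all genes did. The number of calls at day 4 was 3 without TAC day 2 replicate 1 and 2 without sham day 4 replicate 3 or TAC day 7 replicates 1 or 2. All 24 libraries share 1 estimate of the spread.

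At day 7, 3 of 42 members passed, all lower after TAC, beside 23.2% of all genes in either direction. Psme4 had 510.1, 521 and 608 CPM in the sham hearts and 407, 396 and 425 CPM in the TAC hearts, without overlap, and fell by 0.42 ± 0.12 (adjusted p = 0.0198). Psmd2, the scaffold of the 19S base that binds ubiquitin receptors, had 174, 139.6 and 155 CPM in the sham hearts and 114, 134 and 131 CPM in the TAC hearts and fell by 0.31 ± 0.088 (adjusted p = 0.0180), without overlap. Psmd12, a lid subunit, had 133, 152 and 146 CPM in the sham hearts and 98.1, 137 and 118 CPM in the TAC hearts and fell by 0.29 ± 0.098 (adjusted p = 0.0379), with overlap. The median was −0.10, with 31 of 42 below 0, and the groups lay apart in 11 members with TAC lower and 3 with TAC higher, where 19.4% and 20.5% of all genes did. Over the core and 19S genes the lowest medians were those of 1 library, while Psme4 was lowest in TAC day 7 replicate 2. Against the mean of its day's sham hearts, TAC day 7 replicate 1, which is high in Myl7, had a median log2 difference of −0.37 over the 14 core genes and −0.23 over the 20 genes of the 19S particle, where replicates 2 and 3 had −0.0045 and −0.072, and −0.045 and −0.080. Without it no member passed, the median was −0.035, and 18 of 42 were above 0. Psme4 then stood at −0.41 (adjusted p = 0.0656), Psmd2 at −0.24 (0.114) and Psmd12 at −0.17 (0.244). None passed without sham day 7 replicate 3 either, where Psme4 had an adjusted p = 0.102, and 12 passed without TAC day 7 replicate 2, 11 of them lower. Psmd2 was lost without sham day 7 replicate 1 as well, and Psmd12 without sham day 7 replicate 2 or TAC day 7 replicate 3 (adjusted p = 0.105, 0.124 and 0.0858). Without TAC day 21 replicate 2, 5 members passed at day 7, all lower.

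At day 21 no member passed by edgeR, DESeq2 or limma voom, where 1.09% of all genes did by edgeR, and 4 members had an unadjusted p under 0.05 with each of the tools, beside 17.4% of all genes by edgeR. The median was 0.049, with 25 of 42 above 0, and it was 0.021 without the 4 libraries high in Myl7, 0.028 without sham day 21 replicate 2 and 0.082 without TAC day 21 replicate 3. In 7 members all TAC hearts were above all sham hearts and in none below, where 11.9% and 10.5% of all genes lay apart. Psmb8, at 0.43 ± 0.22 (adjusted p = 0.321), had the highest and Psme1, at −0.29 ± 0.18 (0.413), the lowest log2 fold change of the day.

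**Figure D5:**
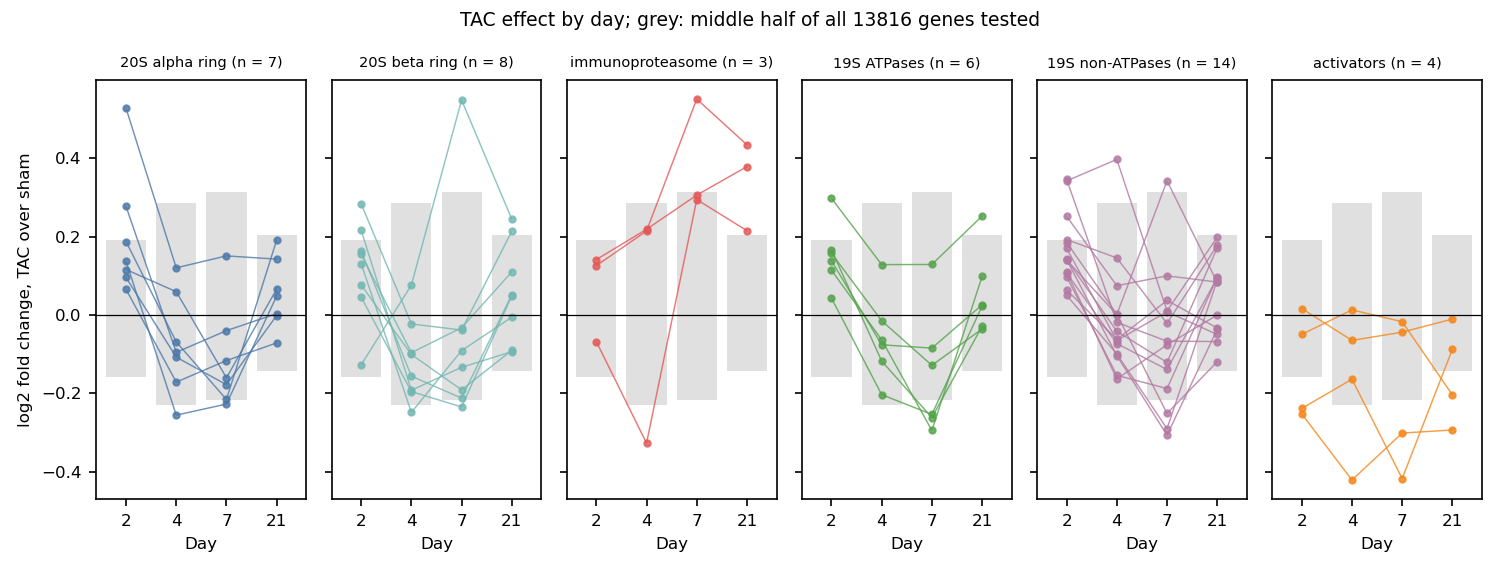
Log2 fold change of TAC against sham at each day for the 42 tested members, by class; points joined by a line are 1 gene, and grey boxes reach from the lower to the upper quartile of all 13816 genes. Alpha ring and 19S genes lie above 0 at day 2 and mostly below 0 at day 7 (member medians 0.14 and −0.10), and all 3 immunoproteasome genes lie above 0 at days 7 and 21.

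Whether the response differed between days was tested over the 4 days together and for day 21 against day 2. No member had an effect that differed over the 4 days by edgeR's quasi-likelihood test (0.369% of all genes did), and 10 had an unadjusted p under 0.05, beside 13.0% of all genes, and likewise 0 and 10 by DESeq2 and by limma voom. The count at an unadjusted p under 0.05 was 2 with Myl7 as a covariate, and 4 to 12 on leaving out 1 library, with the 4 found without TAC day 2 replicate 3 and without TAC day 7 replicate 1. It was also 5 without sham day 2 replicate 3 or sham day 7 replicate 1 and 6 without TAC day 7 replicate 3. The change of the effect from day 2 to day 21 passed in no member and in 0.0145% of all genes, with 1 member at an unadjusted p under 0.05 by edgeR, beside 8.27% of all genes, and 2 by DESeq2 or voom. Day 7 against day 2 entered only the test over the 4 days and was not tested as a pair. Whether the lean upward at day 2 and downward at day 7 differed gene by gene is therefore not settled by these tests. Levels in the sham hearts did not pass a test over the 4 days in any member by edgeR (0.680% of all genes did), with 2 at an unadjusted p under 0.05, beside 9.42% of all genes, and DESeq2 and limma voom also gave 0 and 2.

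For the 34 tested genes of the 20S core without the inducible subunits and Psmb11 and of the 19S particle, taken as deviations from the group means over the 24 libraries, the median correlation over 561 pairs was 0.32, and 82.5% of the pairs were above 0. These genes share depth and scaling in each library, and no other gene pairs were set beside them.

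Other genes of the pathway were read from 3 lists, whose counts stand beside 24.4% of all genes higher and 21.4% lower in the averaged test. Of 15 tested assembly chaperones and other proteasome-bound proteins, none rose and 3 fell in the averaged test: AI314180 (−0.25 ± 0.044, adjusted p = 1.08e-04), the ubiquitin-binding protein Zfand5 (−0.23 ± 0.050, 8.63e-04) and the deubiquitinase Uchl5 (−0.18 ± 0.058, 0.0180). AI314180 is the symbol in the table for the proteasome-binding scaffold Ecm29. Of 17 tested genes for ubiquitin, its activating enzymes, the unfolding ATPase p97 and shuttle factors, none rose and 3 fell, among them the shuttle factor Ubqln2 (−0.16 ± 0.040, adjusted p = 0.00294). Of 13 genes of the NRF1 and NRF2 axis, which controls proteasome genes, 2 rose and 1 fell. The small Maf partners Mafk and Maff rose by 0.40 ± 0.089 and 0.61 ± 0.17 (adjusted p = 0.00114 and 0.00524), and Nfe2l1, which encodes NRF1, fell by 0.11 ± 0.044 (adjusted p = 0.0445). The medians of the 3 lists were −0.068, −0.035 and 0.025, beside −0.0025 over all genes. Fibroblast markers rose in 7 of 10, endothelial markers rose in 1 and fell in 4 of 10, and of 6 tested atrial markers 1 rose and 1 fell.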

How the data were processed

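Frozen left ventricles gave total RNA, and a NuGEN Ovation kit and an Illumina NextSeq500 were used, per the labels' protocols. The authors deposited raw counts of reads by gene symbol and, in another table, RPKM. TopHat and DESeq are named without versions in the submitters' processing notes, with the human build hg19, which cannot hold mouse gene symbols. The mouse build, annotation, counter and strand setting were not given in the sources used here.

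Counts were tested with edgeR 4.0.16 in R 4.3.3 (filterByExpr, TMM scaling, quasi-likelihood test) in 1 fit of 24 libraries and 8 group means, with 16 residual degrees of freedom and Benjamini-Hochberg adjustment over 13816 genes. The averaged effect is the mean of the 4 daily differences between TAC and sham hearts, log2 fold changes carry ± SE, and intervals use the moderated degrees of freedom. Levels of different genes were compared only in RPKM. The scripts were tested on simulated data. Alternatives were other scaling and filters, DESeq2 1.42.0, limma 3.58.1, RPKM, the replicate block and leaving out libraries, and 2 concerning Myl7 were chosen after seeing the data.

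The members and lists were chosen with earlier results of these data known. Named were the immunoproteasome, its counterparts, the activators, the 3 members of each other class with the smallest averaged p, the members past each day's test with the 3 highest and 3 lowest changes, and up to 3 genes of each other list, some of which are not reported here. Psmd5, Psmd9, Psmd10 and Psmb11 were named for their levels after these were seen.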

Additional observations from a re-analysis of the deposited data

How the results depend on the processing

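With the replicate number as a block, 0, 2, 3 and 0 members passed at days 2, 4, 7 and 21 and 10 in the averaged test, against 2, 1, 3, 0 and 10 without it. The block's 2 calls at day 4 were 1 higher and 1 lower, of which 1 was shared, and its 3 at day 7 were 1 higher and 2 lower, of which 2 were shared: Psmd2 was lost (adjusted p = 0.0530) and Psmb8 gained (0.0364). For the effect over days it left 5 members at an unadjusted p under 0.05, against 10. Libraries with the same number in sham and TAC had correlations of their deviations from −0.15 to 0.14, 1 of 12 over 0.1, so that the numbers were not taken to pair the samples. At day 2 (2 calls), 1 member passed with no filter on low counts, and 0 passed with limma voom, with RPKM at a pseudocount of 1 or 0.1 or 1 without a filter, and with only the libraries of the day. At day 4 (1 call), 2 passed with DESeq2 and 0 with RPKM at a pseudocount of 1 without a filter, and the 1 call with only the libraries of the day was not the same gene. At day 7 (3 calls), 5 passed with DESeq2, 1 with only the libraries of the day and 0 without the 4 libraries high in Myl7. Leaving out 1 library at a time gave 0 to 6 calls at day 2, 0 to 3 at day 4, 0 to 12 at day 7 and 7 to 10 in the averaged test, and 0 for day 21, the effect over days, day 21 minus day 2 and the sham hearts over days. The cause was not tested. Over 36 alternatives, 4296 values of the named members gave 0 reversals of a call, 73 lost calls and 48 gained ones. Most of these values belong to results that were no call and so could not lose one, and 82 of the uncalled values changed sign. Calls of single days were lost in 3 (Psme4, day 7) to 20 (Psmb1, day 2) of 36 alternatives. Averaged calls were lost in 0 to 8 (Psmb1) of 35. The member median stayed between 0.093 and 0.15 at day 2, −0.10 and −0.041 at day 4, −0.15 and −0.035 at day 7, 0.017 and 0.082 at day 21, and −0.023 and 0.0099 in the averaged test. With 3 libraries a group the precision of single days is limited: 95% intervals lay within 1.5-fold for 37, 37, 35 and 37 of 42 members at days 2, 4, 7 and 21.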
